A study of Monodelphis domestica and Mus musculus with 2 samples.

Results

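Astrocytes clear glutamate from the synaptic cleft, turn it into glutamine, move water and potassium, and supply neighbouring cells with lipid. The 9 genes described here cover these tasks: Slc1a2 and Slc1a3 encode the glutamate transporters GLT-1 and GLAST, Glul encodes glutamine synthetase, Aqp4 the water channel of the endfeet, and Gja1 the gap junction protein connexin 43. Apoe and Clu encode apolipoproteins that carry cholesterol and other lipids, Aldh1l1 encodes a folate enzyme used as a general astrocyte marker, and Gfap encodes the intermediate filament that rises in reactive and fibrous astrocytes. The genes were chosen by name, and their levels were described by cell label, cortical depth and distance to astrocytes in primary visual cortex (V1). All 9 were measured in the mouse, among 61317 features. In the opossum, 8 of 9 were measured among 30613 features, since no feature there carried the symbol Clu.

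The data were Stereo-seq maps, in which RNA of a tissue section is captured on a patterned chip and assigned to segmented cells. The samples were 1 adult male gray short-tailed opossum (Monodelphis domestica), aged 6 months, and 1 male C57BL/6J mouse of postnatal day 40, neither of them treated or genetically altered. The number of animals was 1 per species, so values were compared between cells and V1 regions of 1 animal, and no p-value was computed. V1 held 4806 opossum cells in 3 regions and 9127 mouse cells in 4 regions, drawn from more than 1 section of each animal, and no cell barcode was shared by the 2 samples. Species, age, RNA quality (RNA integrity number 7.1 in the opossum and above 9 in the mouse) and gene annotation cannot be told apart in any comparison between the animals.

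A level below is the number of a gene's UMIs (unique molecular identifiers, 1 per captured RNA molecule) per 10000 UMIs of all genes, summed over the cells named. Intervals are exact 95% Poisson limits and cover counting error only. The Astro label was placed on 495 opossum cells (10.3%) and 447 mouse cells (4.90%). These labels were transferred from single-nucleus data by expression similarity, so expression chose the cells, and the level of a gene in them is a description. Astro-labelled cells had a median UMI total of 1120 (opossum) and 1157 (mouse), against 1349 and 1313 in the other V1 cells. Segmented areas of such a map can take in RNA of neighbouring cells. The neuronal gene Snap25 was at 26.5 in opossum Astro-labelled cells and at 29.6 in the other cells, and at 24.5 and 24.3 in the mouse. The myelin gene Mbp was at 33.0 and 30.9 in these opossum cells, and mouse cells had 9.31 and 9.72. Both genes were thus close to their level in the surrounding cells. Other neuronal genes were lower in opossum Astro-labelled cells, at 0.799-fold for Syt1, 0.739-fold for Rbfox3, 0.671-fold for Gad2 and 0.539-fold for Sv2b. Opossum region 3 went the other way for Sv2b, at 1.20-fold, and for Gad1, at 1.15-fold (0.813-fold over all regions). In the mouse Syt1, Rbfox3, Gad2 and Sv2b were at 0.907-fold, 0.960-fold, 1.19-fold and 0.835-fold.

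In the mouse genome (GRCm39, GENCODE vM39) the 9 genes are protein coding and lie on 9 chromosomes. Slc1a2 spans chr2:102488574-102621129 on the plus strand, Slc1a3 chr15:8663604-8741595 on the minus strand, Glul chr1:153775690-153785469 on the plus strand, and Gja1 chr10:56253241-56278609 on the plus strand. Apoe spans chr7:19430034-19434947 on the minus strand, Clu chr14:66190200-66218999 on the plus strand, Aldh1l1 chr6:90463409-90577185 on the plus strand, and Gfap chr11:102778159-102791738 on the minus strand. Aqp4 lies on the minus strand of chromosome 18. Genes that overlap them carried few UMIs in V1. The largest such count was 170 for Teddm2, on the strand opposite Glul (4195 UMIs), followed by 103 for Scara3, opposite Clu (3192 UMIs).

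Every measured gene of the set was at a higher level in Astro-labelled cells than in the remaining V1 cells in both species. Summed over the measured genes, the opossum level was 90.4 in Astro-labelled cells and 28.4 elsewhere, a 3.18-fold difference (exact 95% interval 3.09 to 3.28). The mouse sums were 44.2 and 22.8, a 1.94-fold difference (1.86 to 2.02). The regional folds of the sum, 2.80 to 3.33 in the opossum and 1.85 to 2.03 in the mouse, did not overlap. The sums differ in their genes, since that of the mouse also holds Clu, which had the lowest mouse fold (1.61). In the opossum, 8 of 8 genes stood at least 2-fold above the other cells, where 4.82% of the 10751 features tested did so. In the mouse, 5 of 9 did, against 4.54% of 13619 features. The median fold of all tested features was 0.980 for the opossum and 0.985 for the mouse. The sum of the genes differed little between regions, from 88.3 to 92.4 in opossum Astro-labelled cells and from 42.7 to 45.5 in those of the mouse.

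**Figure D1:**
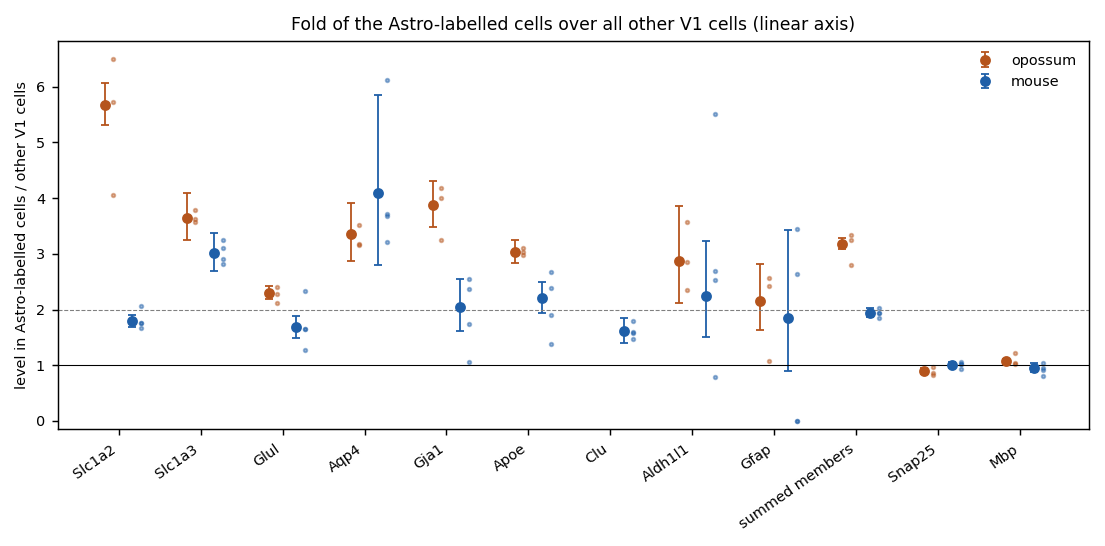
Level in Astro-labelled cells divided by the level in all other V1 cells (y axis, linear fold) for each gene, their sum, and the neuronal gene Snap25 and myelin gene Mbp. Large points give each animal with its exact 95% interval, small points give the V1 regions, the solid line marks 1 and the dashed line 2; the opossum Slc1a2 fold of 5.68 is the highest, while Snap25 and Mbp lie close to 1.

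Of the glutamate transporters, Slc1a2 stood out from its surroundings more in the opossum than in the mouse. Slc1a2, which takes up most synaptic glutamate in the forebrain, stood at 25.2, 23.4 and 16.0 in Astro-labelled cells of opossum regions 1, 2 and 3. In the other cells of these regions it stood at 3.88, 4.09 and 3.93. All regions were separated, and the fold was 5.68 (5.31 to 6.07), with 4.06 in region 3, which also had the lowest median UMIs per cell (1048). In the mouse, Astro-labelled cells held 19.9, 19.5, 20.6 and 23.3 in regions 1 to 4, and the other cells 11.3, 11.7, 11.7 and 11.4. The mouse fold was 1.80 (1.69 to 1.91). Astro-labelled levels of the animals were thus close to each other, and it was the level outside the label that differed, with 3.97 in opossum cells and 11.5 in mouse cells.

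Slc1a3, the transporter shared with Bergmann and radial glia, was at similar levels in both animals. Its level in Astro-labelled cells was 6.97, 5.75 and 6.83 in the opossum regions and 6.46, 5.98, 6.33 and 5.81 in the mouse regions. Other opossum cells were at 1.76 and other mouse cells at 2.07. The folds were 3.65 (3.24 to 4.10) and 3.01 (2.68 to 3.37), and no region of either animal fell below 2.82. Glul, the enzyme that amidates the glutamate taken up, was at 28.2 in opossum Astro-labelled cells and 12.3 in the other cells, 2.30-fold (2.18 to 2.43). In the mouse it was at 5.47 and 3.25, 1.68-fold (1.49 to 1.89), with regional folds from 1.27 to 2.33.

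The channel genes were the sparsest of the transport group in the mouse. Aqp4 was at 3.26, 4.35 and 3.04 in Astro-labelled cells of the opossum regions and at 1.10 in the other cells, a 3.35-fold difference (2.87 to 3.90). In the mouse Aqp4 was at 0.668 against 0.163, 4.10-fold (2.80 to 5.85), from 37 UMIs in Astro-labelled cells. Its regional folds there ran from 3.22 to 6.12, all above 1. Gja1 stood at 8.15, 7.53 and 7.81 in Astro-labelled cells of the opossum, against 2.01 in other cells, and its fold of 3.88 (3.48 to 4.32) was the second highest of the set. In the mouse it was at 1.57 and 0.769, 2.04-fold (1.62 to 2.55), but region 2 gave a fold of 1.06, and the fold was 1.82 without region 1 and 1.90 without region 3.

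Among the lipid carriers, Apoe was at 18.4, 19.1 and 23.1 in Astro-labelled cells of the opossum regions and at 6.05, 6.40 and 7.44 in the other cells, with a fold of 3.04 (2.84 to 3.24). Mouse Apoe was at 5.82, 6.17, 3.94 and 2.76 in Astro-labelled cells and between 1.99 and 2.44 in the others, 2.20-fold (1.94 to 2.49). Region 4 of the mouse had the lowest Astro-labelled Apoe and a fold of 1.39. Clu, measured in the mouse alone, was at 4.01 against 2.48, 1.61-fold (1.40 to 1.85), and its regional folds stayed within 1.48 to 1.79.

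The 2 marker genes rested on few molecules. Aldh1l1 was at 0.966 in opossum Astro-labelled cells (58 UMIs) and 0.336 elsewhere, 2.87-fold (2.11 to 3.86). In the mouse it was at 0.577 (32 UMIs) and 0.257, 2.24-fold (1.51 to 3.23), with a fold of 0.793 in region 1 and of 5.51 in region 4, and of 1.69 once region 4 was left out. Gfap was at 1.12 (67 UMIs) and 0.518 in the opossum, 2.16-fold (1.63 to 2.81), and region 3 alone gave a fold of 1.07. Without region 1 or 2 the opossum fold was 1.95 or 1.93, short of 2-fold. Mouse Gfap amounted to 11 UMIs in the 447 Astro-labelled cells, at 0.198 against 0.107, and the interval of its 1.86-fold difference (0.904 to 3.43) included 1. Without region 1 the fold was 1.01. Gfap in mouse V1 was therefore not separated from the other cells at this depth.

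Most UMIs of these genes lay outside Astro-labelled cells. Those cells held 8.66% of all opossum V1 UMIs and 23.2% of the summed UMIs of the set. In the mouse they held 4.43% of all UMIs and 8.25% of those of the set. By gene the share ran from 17% for Gfap to 35% for Slc1a2 in the opossum, and from 6.95% for Clu to 15.9% for Aqp4 in the mouse. After each cell was thinned to 300 UMIs, 38.0% of opossum Astro-labelled cells and 10.0% of cells with neuronal labels had a Slc1a2 UMI (16 and 97 shallower cells were left out). Before thinning the shares were 67.3% and 32.1%, at median depths of 1120 and 1466 UMIs. In the mouse the thinned shares were 43.7% and 26.9% (10 and 58 cells left out), and the unthinned ones 79.9% and 65.8%, at median depths of 1157 and 1341 UMIs. For Gfap, thinned shares in the mouse were 0.915% and 0.373%, with overlapping exact binomial intervals.

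Cell labels other than Astro ordered differently for each gene. In the opossum, Astro-labelled cells ranked first for 7 of 8 genes, though for Aqp4 (Micro) and Gfap (OPC) the next label lay within its interval. The exception was Apoe. Its level was 23.1 (18.4 to 28.7) in 32 Micro-labelled cells, 19.6 (18.5 to 20.8) in Astro-labelled cells, 13.5 (10.9 to 16.6) in 65 Endo-labelled cells, 9.16 (8.45 to 9.91) in OD-labelled cells and 5.70 (5.50 to 5.91) in cells with neuronal labels. The intervals of the leading pair overlapped, as did their regional ranges of 18.3 to 30.7 and 18.4 to 23.1. Microglia are known to express Apoe. In the mouse, Apoe was at 4.93 in Astro-labelled cells and at 2.82 in Micro-, 3.07 in Endo-, 3.11 in OPC- and 3.19 in OD-labelled cells. In the mouse Astro-labelled cells ranked first for 5 of 9 genes. The 26 L6b cells led for Slc1a2, Gja1 and Clu, and the 35 Lamp5 cells, with 2 UMIs, led for Gfap. Glul in opossum OD-labelled cells stood at 19.9 (18.8 to 20.9), below the Astro level of 28.2 and above the neuronal level of 10.8, and all regional ranges were separate. Mouse OD-labelled cells were at 4.16 and mouse neurons at 3.03.

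**Figure D2:**
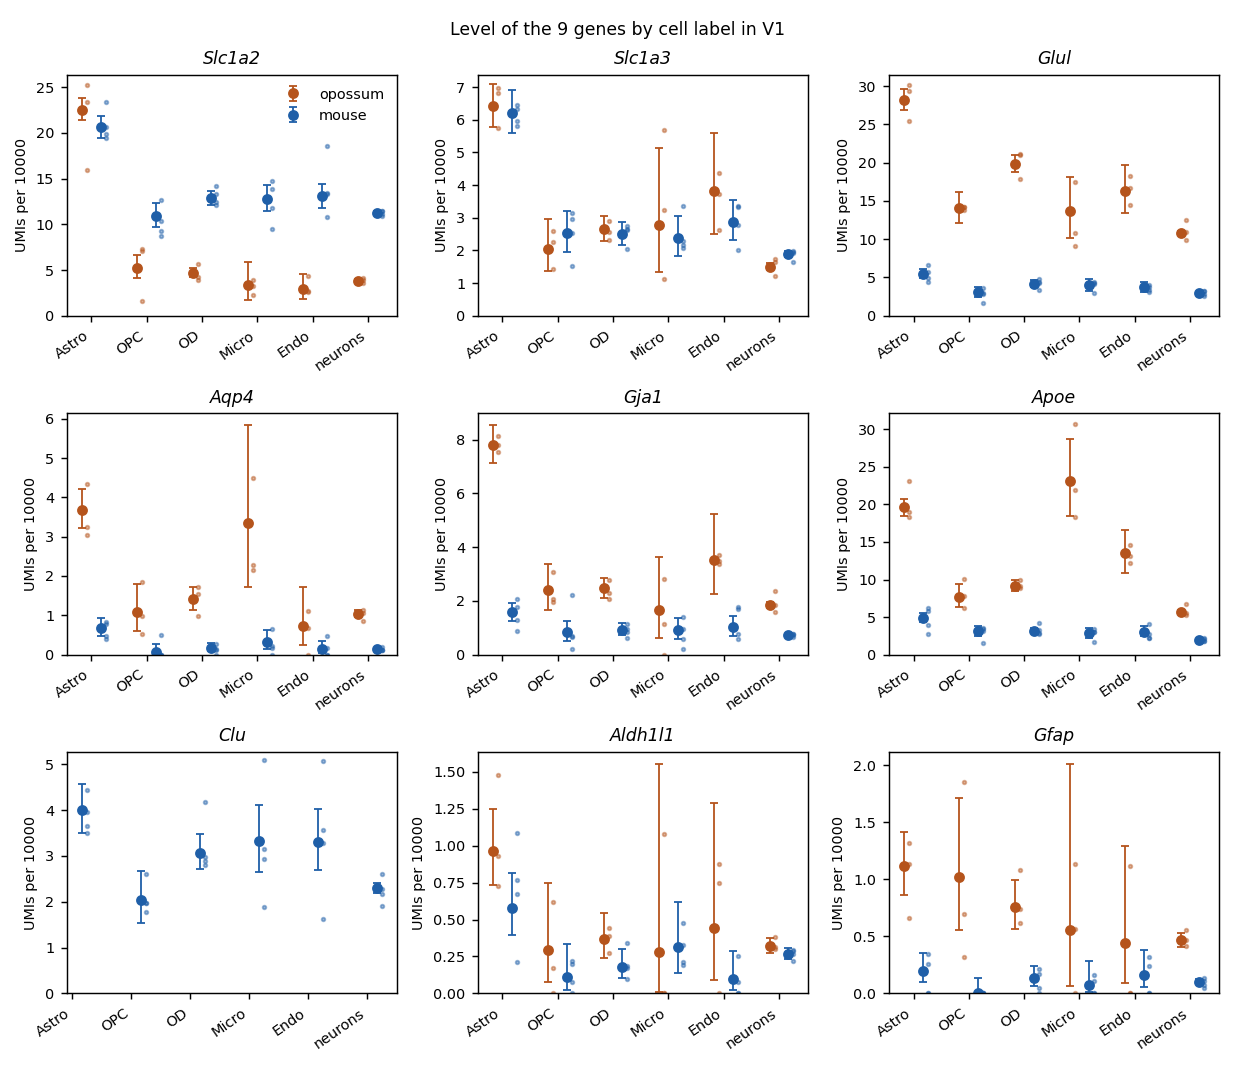
UMIs per 10000 (y axis, linear, a scale for each gene) in cells carrying the Astro, OPC, OD, Micro, Endo and pooled neuronal labels (x axis) of opossum and mouse V1. Large points are the animal's value with its exact 95% Poisson interval and small points are the V1 regions; opossum Apoe is as high in Micro-labelled as in Astro-labelled cells, and mouse Slc1a2 lies between 10.9 and 13.1 in every label shown but Astro.

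Slc1a2 varied between neuronal labels as well. In the mouse its level was 10.1 in L2/3, 11.9 in L4, 12.2 in L5IT, 11.7 in L6IT, 12.4 in L6CT and 7.65 in L5PT cells. The L5PT regions, from 6.14 to 8.40, lay below every L2/3 region (9.74 to 10.7). The 35 mouse Lamp5 cells were the lowest, at 7.21 (4.86 to 10.3). In the opossum L5PT cells had the lowest Slc1a2 of all labels kept, 2.25 (1.68 to 2.94) over 115 cells, whereas L6CT cells had 5.42 and IT_A cells 3.18. The 26 mouse L6b cells had 20.7 (16.3 to 25.9), as high as Astro-labelled cells, but their regions ran from 7.38 to 27.5. Their Slc1a3 UMIs came from 1 region, and Aqp4, Aldh1l1 and Gfap were at 0 in them.

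The Astro-labelled cells were not uniform. Labels were given in 3 rounds of decreasing neighbour agreement, and in the opossum Slc1a2 was at 29.1 in the 290 cells labelled in round 1, 12.8 in the 155 of round 2 and 8.87 in the 50 of round 3. Gja1 was at 10.1, 4.04 and 4.44 in the same rounds, while Slc1a3 was at 6.92, 5.52 and 5.79 and Glul at 31.0, 23.2 and 25.7. Snap25 moved the other way, at 24.2, 29.2 and 34.0. A class label given separately placed 133 opossum Astro-labelled cells among glutamatergic neurons. These had Slc1a2 at 10.4 against 26.5 in the 359 cells of non-neuronal class, Gja1 at 3.31 against 9.25, and Glul at 24.0 against 29.8. Their Slc1a2 was still above the 3.97 of cells without the Astro label. In the mouse the rounds differed less for Slc1a2, at 22.7, 17 and 18.5. Apoe was at 5.65, 5.52 and 2.27 in the mouse rounds and at 21.9, 14.9 and 19.7 in those of the opossum.

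Mouse cells carried a finer label as well, with 163 Astro_A and 170 Astro_B cells at median depths of 303 and 427 µm. Apoe was at 2.82 in Astro_A and 8.25 in Astro_B, Aqp4 at 0.370 (8 UMIs) and 1.29 (26 UMIs), Clu at 3.00 and 5.42, and Glul at 4.90 and 6.76. Slc1a2, at 22.6 and 20.9, and Slc1a3, at 6.24 and 6.76, were near equal in both. The genes that differ could have been among those that set these labels, so the contrast is a description of the label. Regional ranges of Apoe, 1.45 to 4.91 and 3.66 to 10.3, overlapped.

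Across depth the set was nearly flat when all V1 cells were pooled. V1 depth, from the top of the upper layers to the bottom of layer 6, was scaled to 0 to 1 and cut into 3 equal zones. A gene was called when its level in the lower zone differed at least 1.5-fold from that in the upper zone, with 1 sign in every region. None of the 8 opossum genes was called over all cells, where 8.03% of features were called deeper and 8.28% shallower. Without region 1, 3 opossum genes were called: Slc1a2 (1.73-fold) and Gfap (1.74-fold) deeper and Aldh1l1 (ratio 0.655) shallower. None of the 9 mouse genes was called, where 4.25% and 5.69% of features were. The summed level went from 30.5 in the upper to 32.1 in the lower zone of opossum V1, and in mouse V1 from 22.8 to 25. The mean relative depth of their UMIs, with every cell given equal weight, was 0.489 in the opossum, where that of all UMIs was 0.493, and 0.495 in the mouse, where it was 0.487.

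Within opossum Astro-labelled cells, by contrast, 2 of 8 genes were called, both shallower. Apoe was at 24.6 (22.3 to 27.1) in the upper zone and 12.7 (11.2 to 14.5) in the lower zone, a lower-over-upper ratio of 0.517, with 0.451 to 0.576 over the regions. Slc1a3 was at 9.09 (7.69 to 10.7) and 5.23 (4.24 to 6.38), a ratio of 0.576, with 0.525 to 0.845 over the regions. Without region 1 the Slc1a3 ratio was 0.677, which is not past 1.5-fold, and Slc1a2 was called deeper at 1.71-fold, whereas Apoe stayed between 0.502 and 0.525 with any 1 region left out. In these cells 8.66% of the 2886 features tested were called shallower and 9.49% deeper, and with 8 genes a count of 2 was not read as particular to the set. Slc1a2 was at 20.5 and 22.3, Gja1 at 8.30 and 7.44, and Glul at 32.0 and 24.8. The mean relative depth was 0.405 for Apoe and 0.444 for the summed genes, against 0.480 for all UMIs of these cells. Apoe also leaned towards the surface in the cells without the Astro label, at 6.65 and 5.68, with every region below 1 (0.725 to 0.956). Mbp in the same Astro-labelled cells rose from 19.3 to 47.9. Whether myelin RNA in the deep zone bears on the Apoe and Slc1a3 ratios was not tested.

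In mouse Astro-labelled cells, 6 of 9 genes reached the minimum of 50 UMIs and none was called, where 4.89% of features were called deeper and 4.77% shallower. Apoe was at 5.59 in the upper and 5.03 in the lower zone, with regional ratios from 0.761 to 1.21. Slc1a2 was at 20.9 and 20.5, Slc1a3 at 6.70 and 7.06, and Glul at 5.17 and 7.06. Without region 2, Gja1 was called deeper, at 1.94-fold. The mean relative depth of the summed genes was 0.469, against 0.461 for all UMIs. The mouse regional ratios of Apoe all lay above the opossum ones. Mouse Mbp rose from 5.22 to 15.6 in these cells. In opossum cells without the Astro label, Slc1a2 was the single gene called, at 2.89 in the upper and 4.71 in the lower zone, 1.63-fold (1.31 to 1.85 over the regions), where 8.73% of features were called deeper. Slc1a2 in those mouse cells was at 10.6 and 12.2, 1.16-fold.

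**Figure D3:**
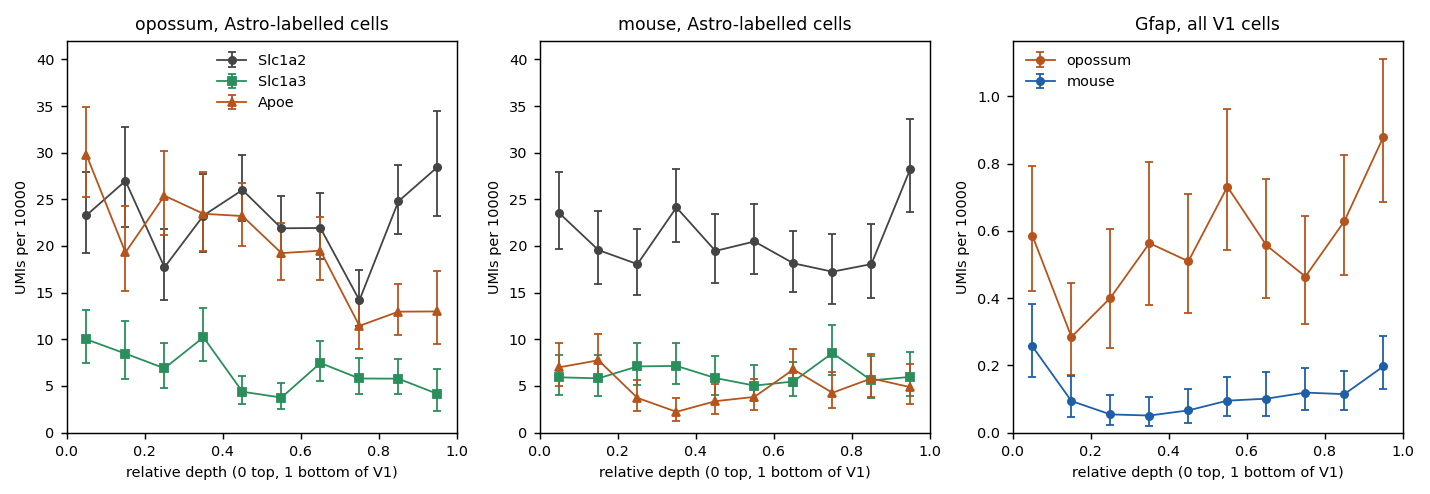
UMIs per 10000 (y axis, linear) over 10 equal bins of relative V1 depth (x axis, 0 at the top), with exact 95% Poisson intervals. The left and middle panels show Slc1a2, Slc1a3 and Apoe in Astro-labelled cells, where opossum Apoe falls from 29.8 in the top bin to 13.0 in the bottom one; the right panel shows Gfap over all V1 cells, which in the mouse is highest in the outermost bins.

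Mouse Gfap was highest in the top and bottom bins of 10. This was seen in the bins first, so the values that follow describe it and no background was set against them. Mouse Gfap was at 0.221 (0.164 to 0.292; 50 UMIs) in these outer bins and 0.0867 (0.0696 to 0.107; 89 UMIs) in the 8 between them, a 2.55-fold difference. The regional folds were 3.33, 1.14, 1.86 and 2.24, so region 2 hardly showed the difference. Opossum Gfap was at 0.742 (0.610 to 0.893) and 0.522 (0.463 to 0.587), 1.42-fold, with 1.22 to 1.60 over the regions. Other mouse genes of the set were higher in the outer bins in every region, by less: Aqp4 1.31-fold, Apoe 1.21-fold, Clu and Gja1 1.15-fold and Glul 1.14-fold. Mouse Slc1a2, Slc1a3 and Aldh1l1 had regions on both sides of 1. The other opossum genes were between 0.802-fold (Aldh1l1) and 1.02-fold (Aqp4). Mbp was also higher in the outer bins, 1.66-fold in the mouse and 1.32-fold in the opossum, and the bottom bin adjoins white matter. Whether white matter RNA contributes to the Gfap level was not tested. Cells outside the V1 regions, which include other cortex and white matter, had 2.76 times the opossum and 2.95 times the mouse V1 level of Gfap. The same ratio was 1.75 and 1.65 for Aqp4, 1.38 and 1.48 for Apoe, and 0.776 and 0.959 for Slc1a2.

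Opossum cells without the Astro label held more of these transcripts when an Astro-labelled cell was near, and mouse cells did so in the sum over regions. In the opossum the summed level was 50.3 (43.5 to 57.9) in 63 cells whose centre lay less than 10 µm from such a cell, 34.7 (33.6 to 35.9) in 840 cells at 10 to 20 µm, 28.7 (28.1 to 29.4) at 20 to 40 µm and 25.1 (24.5 to 25.7) beyond 40 µm. In the mouse the sums were 29.1 (25.6 to 33.0) in 112 cells, 24.0 (23.3 to 24.7), 22.8 (22.4 to 23.3) and 22.3 (21.9 to 22.7). Over the opossum regions the nearest cells ran from 27.6 to 62.4 and the farthest from 23.7 to 26.9, which did not overlap. Over the mouse regions they ran from 16.8 to 36.3 and from 21.1 to 22.8, which overlapped. The nearest cells were small, with medians of 533 and 747.5 UMIs against 1414 and 1352 in the farthest. Snap25 did not fall with distance, at 26.3 near and 29.5 far in opossum cells and at 25.7 and 24.7 in mouse cells.

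Gja1 had the highest ratio of nearest to farthest cells in the opossum. Its level was 5.94 (3.76 to 8.91), 2.99 (2.68 to 3.34), 2.13 (1.96 to 2.32) and 1.42 (1.27 to 1.57) with growing distance, 4.19-fold from the nearest to the farthest cells (2.62 to 6.39). The nearest cells held 23 Gja1 UMIs in all, and their regions ran from 0.889 to 9.93, against 1.35 to 1.5 in the farthest, so the regions overlapped. Apoe changed 2.09-fold (1.52 to 2.81), Slc1a2 1.99-fold (1.33 to 2.88) and Glul 1.84-fold (1.45 to 2.30), and of these Slc1a2 and Glul had no overlap between the regions of nearest and farthest cells. For Slc1a3, Aqp4, Aldh1l1 and Gfap the intervals of the opossum ratio included 1. In the mouse the intervals of Slc1a2, 1.24-fold (1.03 to 1.49), and Clu, 1.62-fold (1.11 to 2.27), excluded 1, and those of the other 7 genes did not, while the regions of nearest and farthest cells overlapped for both. Among opossum cells with neuronal labels alone, the summed level was 49.1 near and 22.6 far, 2.17-fold (1.79 to 2.61), and among mouse neurons 29.1 and 21.0, 1.39-fold (1.16 to 1.65). These nearest neurons were 38 opossum and 59 mouse cells, and their regions, from 20 to 60.7 and from 15.1 to 35, overlapped those of the farthest neurons in both animals (21.9 to 23.9 and 20.3 to 21.4).

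**Figure D4:**
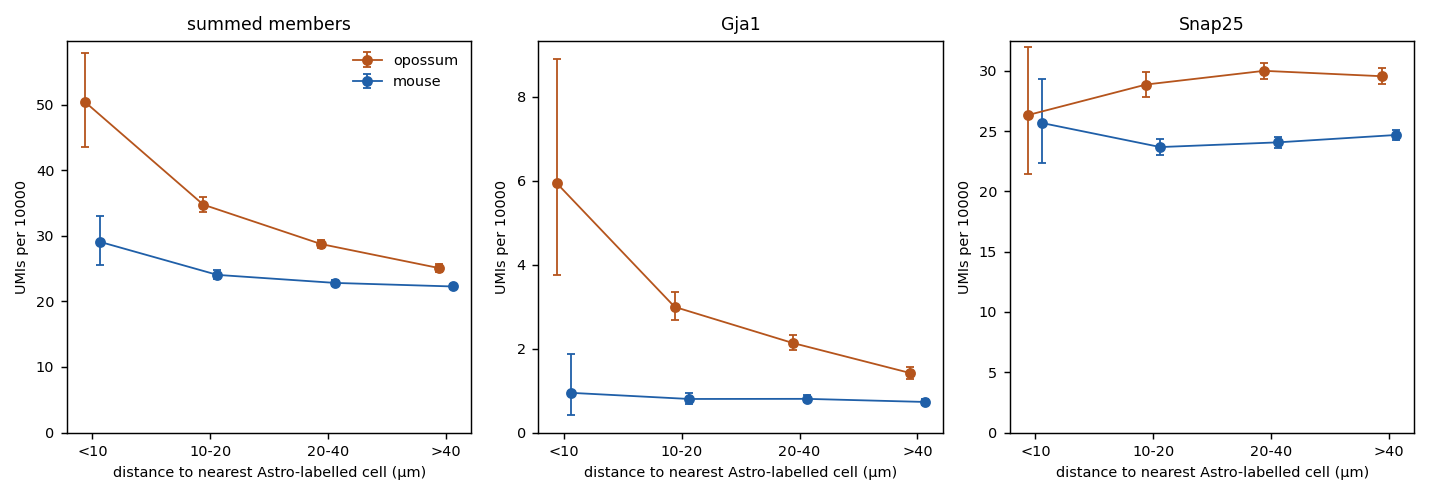
UMIs per 10000 (y axis, linear from 0) in cells without the Astro label, by distance of their centre to the nearest Astro-labelled cell (x axis, 4 bins in µm), for the summed genes, Gja1 and Snap25, with exact 95% Poisson intervals. The opossum sum (8 genes) falls from 50.3 to 25.1 and the mouse sum (9 genes, with Clu) from 29.1 to 22.3, while Snap25 shows no such fall.

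Set side by side, levels in Astro-labelled cells were higher in the opossum for Glul (5.16-fold), Aqp4 (5.52-fold), Gja1 (4.98-fold), Apoe (3.99-fold) and Gfap (5.63-fold), and for these 5 of 8 genes no opossum region overlapped a mouse region. Of the 3923 features with a shared symbol that reached the UMI minimum, 21.7% were at least 2-fold higher in the opossum without overlap and 13.0% lower, and the median ratio was 1.19. Slc1a2 (1.10-fold) and Slc1a3 (1.03-fold) overlapped between the animals, as did Aldh1l1 (1.67-fold). In cells without the Astro label the same 5 genes were higher in the opossum, from 2.62-fold for Gja1 to 6.74-fold for Aqp4, where 26.5% of features were higher and 18.8% lower. Slc1a2 was there the 1 gene of 8 past 2-fold lower in the opossum, at 0.347 of the mouse level, and Slc1a3 was at 0.851 of it with overlapping regions. With 1 animal per species these are differences between 2 animals, and reads of the opossum were mapped to another annotation.

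Other genes of the same pathways were read from lists of named genes. Over all features tested, 4.82% in the opossum and 4.54% in the mouse were at least 2-fold higher in Astro-labelled cells. Of the other astrocyte genes, 12 of 19 tested were at least 2-fold higher in opossum Astro-labelled cells (median 2.82), among them Sox9, an astrocyte transcription factor (5.76-fold), Slc39a12, a zinc transporter (5.15-fold), and Slc4a4, a bicarbonate transporter (4.40-fold). In the mouse 11 of 30 were (median 1.84), led by the proteoglycan gene Gpc5 (9.40-fold), Plpp3 (4.25-fold) and the protease gene Htra1 (3.87-fold). Htra1 was at 0.717-fold in the opossum, and Fabp7, a fatty acid binding protein of radial glia, was at 0.177-fold in the mouse from 1 UMI in Astro-labelled cells. Aldoc and Cpe stood below 1.5-fold in both animals. Of lipid-handling genes, 4 of 11 passed in the opossum (median 1.17), among them the cholesterol exporter gene Abca1 (3.31-fold), Fabp5 (2.35-fold) and Npc1 (2.13-fold). None of 20 did in the mouse (median 1.12), where Soat1 at 1.75-fold was the highest. Of genes for glutamate and glutamine handling, the glutamine transporter gene Slc38a3 (2.42-fold) was the 1 of 5 in the opossum, and none of 8 passed in the mouse, with Glud1 at 1.58-fold. Sterol synthesis genes such as Hmgcs1 stood at 1.22-fold and 1.09-fold.

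Markers of other cells in the Astro-labelled cells differed by list. The 4 oligodendrocyte markers tested in the opossum had a median fold of 0.896 and the 5 in the mouse of 0.874. The 3 neuron markers had medians of 0.799 and 0.960. Of the microglia markers, 1 of 2 tested in the opossum (Cx3cr1, 2.02-fold) and 2 of 6 in the mouse (Csf1r, 2.43-fold, and C1qb, 2.37-fold) were past 2-fold, at levels of at most 0.433. The other opossum marker, Csf1r, was at 0.646-fold (3 UMIs in Astro-labelled cells). The remaining mouse markers were at 1.45-fold (Cx3cr1), 1.24-fold (C1qa), 1.20-fold (Tmem119) and 0.910-fold (P2ry12). Mouse Csf1r, with 23 UMIs, ran from 0.403-fold to 5.28-fold over the regions. In the opossum the vascular markers were higher as well, with folds of 1.66 for the pericyte gene Rgs5 (level 1.12), 1.49 for Flt1 (0.800) and 1.89 for Cldn5 (0.433), and the meningeal gene Dcn was 2.84-fold higher, at 0.350. Opossum Cldn5, with 26 UMIs, ran from 0.441-fold in region 1 to 2.66-fold in region 2. In the mouse Rgs5, Flt1 and Cldn5 were at 0.856-fold, 0.816-fold and 0.890-fold. The GABAergic markers had medians of 0.742 and 0.980. Their part in the Apoe level was not tested.

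The genes whose pattern over cell labels was most like that of the summed set were ranked by Pearson's r of log levels, over 14 labels in the opossum and 17 in the mouse, as a description. In the mouse these were Atp1b2, a sodium pump subunit (r = 0.764), Slco1c1, a thyroid hormone transporter (0.755), Prdx6 (0.744), Fgfr3 (0.744), Mmd2 (0.734) and Gjb6, connexin 30 (0.722). In the opossum, PDE7B (0.884), RGCC (0.863), PBXIP1 (0.858), LRIG1 (0.852) and SDC4 (0.834) were the named genes among the first 10. No named gene was on both lists of 10.

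Within Astro-labelled cells the genes of the set went together weakly, not at all or, for opossum Glul and mouse Aqp4, inversely beyond counting error from cell to cell. Opossum cells with a Slc1a2 UMI had 0.942 times the summed level of the other genes of cells without one, and mouse cells 0.896 times. For Apoe the ratios were 1.15 and 0.883, and for Gja1 1.15 and 0.882. In the opossum Gja1 separated the cells beyond counting error, at 87.9 (84.7 to 91.2) with a Gja1 UMI and 76.7 (73.5 to 80.0) without, at median depths of 1317 and 990 UMIs. Opossum intervals were also separate for Apoe, at 72.3 (70.0 to 74.7) with and 62.7 (57.5 to 68.3) without, and for Slc1a3 and Gfap. Slc1a3 and Gfap were also above 1 in the opossum, at 1.09 and 1.13, and the other opossum genes were below 1. Opossum Glul was at 0.810, from 61.3 (59.2 to 63.4) with a Glul UMI and 75.6 (67.8 to 84.1) without. Median depths of these cells were 1192 and 568 UMIs. In the mouse every gene but Clu (1.03) was below 1, and only Aqp4, at 0.785, had separate intervals. These were 34.8 (29.6 to 40.7) in 26 cells with an Aqp4 UMI and 44.4 (42.5 to 46.2) in those without. In cells without the Astro label the ratios were above 1 for 7 of 8 opossum genes, up to 1.23 for Gja1, and for 9 of 9 mouse genes, up to 1.09, at counts of mostly 0 or 1 UMI per cell.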

How the data were processed

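The authors aligned the reads with SAW v7.1.2, the Stereo-seq pipeline, the mouse to GRCm39 and the opossum to a custom genome with extended gene ends, segmented cells, and deposited raw UMI counts per cell and gene, with a table of cell labels, V1 regions and coordinates. They kept cells with at least 50 genes and 100 UMIs, removed genes found in few cells, and transferred class and subclass labels from single-nucleus data by nearest neighbours. No doublet caller was run here. V1 cells that passed this filter were used (14 opossum and 7 mouse V1 cells failed it), and the lowest UMI total was 102 and 104. A distance of 2 spatial units was taken as 1 µm.

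From the deposited counts, UMIs were summed over cells and divided by all UMIs. Intervals are exact Poisson limits for levels, exact Clopper-Pearson limits for shares and exact conditional binomial limits for ratios of 2 sums, at 95%, and assume independent molecules. Features with at least 50 UMIs in the cells compared were tested against the fold thresholds, and labels with at least 25 cells were kept. Region heights were scaled to the tallest region of each animal. The likeness of genes used log2 of the level plus 0.1, for features with at least 200 UMIs. The regions come from 1 animal per species and are not replicates of it, so neither species nor labels were tested. Python 3.11.15, numpy 2.4.6 and scipy 1.17.1 were used. The genes and lists, and the rule of naming every gene of the set, were chosen with earlier results of these data known. Some genes of the lists are not reported here by name.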

Additional observations from a re-analysis of the deposited data

How the results depend on the processing

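In all planned settings the summed genes stayed higher in Astro-labelled cells, and 107 of 127 recomputed summary values moved by less than the spread over regions or, for counts, by less than 1.5 times. At a 3-fold threshold 5 opossum and 2 mouse genes stood past it. Shares of all features were computed at the main settings only, so counts of genes called under other settings are descriptions. Restricting Astro-labelled cells to the non-neuronal class gave a fold of the sum of 3.51 and a share of 20.1% in the opossum. Restricting them to the first round gave 3.72 and 18.0% for the opossum and 2.09 and 5.30% for the mouse. The mean over cells gave a mouse fold of 2.17. Thinning to 300 UMIs gave shares of 26.0% and 9.30%, and leaving out mouse cells without a subclass label 9.76%. For depth, the lower of the planned thresholds called 2 opossum genes over all cells (Slc1a2 and Apoe) and 1 mouse gene in Astro-labelled cells (Glul). Cutting depth once, at its middle, left 1 opossum gene (Apoe) in Astro-labelled cells, and depth not scaled to the tallest region called 2 mouse genes there (Glul and Gja1). The mean relative depth of the summed genes minus that of all UMIs, -0.0367 in opossum Astro-labelled cells, was -0.0293 with at least 200 genes and 300 UMIs per cell and -0.0253 after thinning. The difference for Gja1 there turned from -0.0303 to 0.0204 after thinning. The cause was not tested.

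With 1 region left out, the count past 2-fold ran from 7 to 8 in the opossum and 4 to 6 in the mouse. The fold of the sum ran from 3.09 to 3.29 and from 1.91 to 1.96. Over all cells, depth calls ran from 0 to 3 in the opossum, and in mouse Astro-labelled cells from 0 to 1.

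No paired analysis was possible because each species has 1 sample. Counts of 11 to 67 UMIs limit Gfap, Aldh1l1 and mouse Aqp4 in Astro-labelled cells.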
